A study of Danio rerio with 24 samples.

Results

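Whole zebrafish embryos exposed to the dioxin TCDD (2,3,7,8-tetrachlorodibenzo-p-dioxin) were compared with embryos exposed to the solvent DMSO at 60 hours post-fertilization (hpf). The comparison takes every array whose sample title gives 60 hpf, 12 of the 24 in the series: 3 DMSO and 3 TCDD arrays on each of 2 platforms. All embryos were of the wild-type TL strain. Each was exposed once, for 1 h from 30 hpf, to DMSO or to TCDD, and the 60 hpf samples were taken 30 h after the exposure began. The other 12 arrays hold embryos sampled at 36 hpf and serve here only to share the estimate of the spread and to set the 60 hpf effect beside the earlier one. The labels call the 3 samples of a group biological replicates. The sources used here do not state the dose of TCDD, the number of embryos in a sample, or whether samples of the same title on the platforms share their RNA.

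TCDD binds the aryl hydrocarbon receptor (AHR), which then enters the nucleus, pairs with ARNT and switches on genes such as cyp1a. In zebrafish embryos this route is known for malformation of the heart and jaw, oedema and reduced blood flow. A microRNA (miRNA) is a short RNA that, loaded on an Argonaute protein, lowers the output of messenger RNAs it pairs with, mainly through bases near its 5′ end. Many miRNAs are made in 1 cell type or organ, such as miR-451 in red blood cells or miR-122 in hepatocytes, so in whole embryos their level follows both the number of those cells and the RNA in each.

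The probes of the miRNAs at the centre of the results are shown first, because relatives differ by few bases and a probe reports what its letters pair with. They are the DNA probes of the Agilent array as its files list them, written 5′ to 3′. miR-23a and miR-23b, whose genes lie near those of miR-24 and the miR-27 miRNAs, are told apart by a single letter, in capitals, A4T counted from the 5′ end of the miR-23a probe over the 15 bases that both hold.
miR-23a: tggAaatccctggca
miR-23b: tggTaatccctggcaa
The 7 letters in capitals are the longest stretch that all 5 miR-27 probes share.
miR-27a: agcgGAACTTAgcc
miR-27b: tgcaGAACTTAgccact
miR-27c: gcaGAACTTAaccactg
miR-27d: tgaaGAACTTAgccact
miR-27e: cactGAACTTAgccac
Each of these miRNAs has a pair of Agilent probes that differ by 1 base in length. In the remaining probes, all the longer of their pair, the capital marks the base that the shorter one lacks.
miR-24: ctgttcctgctgaactgA
miR-451: aactcagtaatggtaacggttT
miR-144: agtacatcatctatactgtA
miR-122: caaacaccattgtcacacT
miR-143: gagctacagtgcttC

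The array files place these probes on the danRer5 zebrafish assembly. The longer miR-24 probe lies on 4 chromosomes, 3, 8, 10 and 22, in each case within 7507 bases of a miR-27 probe. On chromosome 10, miR-23b (chr10:10612701-10612715) is 137 bases from miR-27d (chr10:10612853-10612869) and 6236 bases from miR-24. On chromosome 3, miR-23a (chr3:9885487-9885501) is 202 bases from miR-27c (chr3:9885268-9885284), and another miR-23a copy lies 6729 bases from miR-24. miR-24 is 4904 bases from miR-27b on chromosome 8. On chromosome 22, miR-27e lies between miR-23a, 6967 bases away, and miR-24, 7507 bases away. miR-27a is 1907 bases from a copy of miR-23a on chromosome 2. miR-451 (chr5:41283987-41284007) and miR-144 (chr5:41284130-41284148) are close neighbours. Mature miRNAs from different copies have the same letters under these probes, so a miR-24 or miR-23a signal is the sum over the copies.

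On the Agilent arrays the level is the log2 of the background-subtracted signal over the array's 75th percentile. On the Exiqon arrays it is the log2 ratio of the sample, in Hy3, over a reference pool, in Hy5. A change is the TCDD mean minus the DMSO mean on that log2 scale, given ± its standard error (SE) over groups of n = 3 arrays. The adjusted p is limma's after Benjamini-Hochberg adjustment over all miRNAs tested on the platform, with 0.05 as the threshold. Of 231 names on Agilent, 134 were tested, and of 224 zebrafish names on Exiqon, 223. The 60 hpf arrays had 191 to 277 of 490 Agilent probes well above background and 240 to 255 of 255 Exiqon probes above theirs. The lowest Agilent count, 191, was that of DMSO replicate 2, and for 18 of the 134 tested miRNAs it was the only 60 hpf array without a well-detected probe. Exiqon image analysis was done on 2 days: TCDD replicates 1 and 3 fell on the second day and TCDD replicate 2 and the 3 DMSO arrays on the first. Over all probes the Exiqon ratios of 36 and 60 hpf arrays correlated at -0.612 to -0.509; the direction was kept because the labels name the dye of the sample. On Agilent, slide 1 held replicate 1 and slide 2 replicates 2 and 3 of both groups.

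At 60 hpf, 6 Agilent miRNAs (4.48% of those tested) passed the threshold, 5 higher and 1 lower under TCDD. On Exiqon 13 passed (5.83%), 10 higher and 3 lower. The changes were small: the largest was 1.57-fold on Agilent and 1.28-fold on Exiqon, and the median change over all miRNAs tested was 0.020 and 0.0017. Background correction differed between the platforms, so sizes are not strictly comparable between them. Across the main and alternative settings the miR-27c change on Agilent ranged from 0.32 to 0.89, and the miR-23a change on Exiqon from 0.31 to 0.53. Passing on both platforms in the same direction were 5 miRNAs, 3.79% of the 132 tested on both: miR-23a, miR-23b, miR-24 and miR-27c were higher and miR-451 lower. None passed in opposite directions. Without TCDD replicate 3 the Agilent count was 3. Without TCDD replicate 2 the Exiqon count was 50, and the remaining TCDD arrays were then both of the second image analysis day, so day and treatment cannot be told apart in that count. Because the RNA came from whole embryos, fewer cells of a type and less RNA per cell cannot be told apart in any of these changes.

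The miR-23, miR-24 and miR-27 genes stand in clusters that are transcribed together, and in mammals and zebrafish their miRNAs are known for roles in blood vessel growth. Of the 8 members on Agilent 4 passed the detection filter, and these 4 rose, against 3.73% of all miRNAs tested there, with a median change of 0.58 beside 0.020 over all. On Exiqon 7 of 8 rose, against 4.48% of all, with a median of 0.25 beside 0.0017. Over all miRNAs the groups of arrays did not overlap for 11.9% on Agilent and for 26.2% of those measured on every 60 hpf array on Exiqon. For the members of this list they did not overlap in any of the 12 measurements. The shares over all miRNAs include these members, which make up most of the miRNAs that rose. This list was drawn up with earlier results of these data known, so its count is a description.

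miR-23a, known in mammals as an endothelial miRNA, had Agilent levels of -3.19, -3.12 and -3.13 in the 3 DMSO arrays and -2.66, -2.25 and -2.57 in the TCDD arrays. Every TCDD array lay above every DMSO array, and the DMSO arrays lay close together. The change was 0.65 ± 0.12 (95% interval 0.38 to 0.92), 1.57-fold, with an adjusted p of 0.0102. The shorter Agilent probe gave 0.87 ± 0.15. It was well above background on 2 of 3 DMSO arrays, with DMSO replicate 2 lowest at -4.90 against -4.29 and -4.32. On Exiqon the DMSO ratios were -0.061, -0.11 and -0.075 and the TCDD ratios 0.20, 0.28 and 0.30, again apart. There the change was 0.34 ± 0.033, with the smallest adjusted p on that platform, 6.48e-05, and the second Exiqon probe of this name gave 0.32 ± 0.035. Within batches the miR-23a change was 0.52 on Agilent slide 1 and 0.72 on slide 2. Against the 3 Exiqon DMSO arrays it was 0.36 for the TCDD array of the same image analysis day and 0.33 for those of the second day. The Agilent call was lost with normexp background correction and with no detection filter, with adjusted p up to 0.141.

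miR-23b, which differs from miR-23a by the base shown above within the probed stretch, was at -1.32, -1.31 and -1.25 in the Agilent DMSO arrays and -0.97, -1.15 and -1.02 in the TCDD arrays. The groups did not overlap, but the gap was narrower than for miR-23a. Its Agilent change was 0.24 ± 0.061 (adjusted p = 0.0457). On Exiqon it went from -0.029, 0.028 and -0.017 in DMSO to 0.25, 0.30 and 0.32 in TCDD, a change of 0.29 ± 0.032 (adjusted p = 0.000107). The Agilent call was lost in 11 of 16 alternative settings, with adjusted p up to 0.222, among them all single-array omissions but that of TCDD replicate 2. The Exiqon call held in all 17 alternative settings.

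miR-24, which in zebrafish and mammals is made from the same transcripts, had the smallest adjusted p on Agilent. Its levels were -2.86, -3.23 and -2.90 in the DMSO arrays and -2.42, -2.43 and -2.49 in the TCDD arrays. DMSO replicate 2 was the low one, and the 3 TCDD arrays lay close together. The change was 0.55 ± 0.083 (0.36 to 0.73, 1.46-fold, adjusted p = 0.00499), and the shorter probe gave 0.67 ± 0.14. That probe was well above background on 2 of 3 DMSO arrays, with DMSO replicate 2 lowest at -3.99 against -3.32 and -3.36. Exiqon ratios were 0.016, 0.022 and 0.056 in DMSO and 0.21, 0.32 and 0.34 in TCDD, a change of 0.26 ± 0.038 with an adjusted p of 0.000662. The second Exiqon probe for miR-24 gave 0.25 ± 0.031. Agilent slides 1 and 2 gave 0.44 and 0.60, and the Exiqon TCDD arrays of the first and second day 0.29 and 0.24. The Agilent call held in all 16 alternative settings, with an adjusted p of at most 0.0497. Among these, the deposited table repeats the main values and could not differ.

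miR-27c was the one miR-27 that Agilent could test. Its levels were -3.90, -3.89 and -3.89 under DMSO, where the probe was well above background on 2 of 3 arrays, and -3.39, -3.09 and -3.34 under TCDD, where it was so on 3 of 3. The Agilent change was 0.62 ± 0.10 (1.53-fold, adjusted p = 0.00545); with normexp background correction it was 0.32 with an adjusted p of 0.678. Only the 17-base probe gave a signal. The 16-base probe was well above background on none of the 6 arrays. On Exiqon miR-27c had ratios of 0.20, 0.092 and 0.17 in DMSO and 0.35, 0.41 and 0.41 in TCDD, a change of 0.23 ± 0.036 (adjusted p = 0.00103). miR-27c*, the opposite strand of the same hairpin, was at -0.046 ± 0.042 on Exiqon with overlapping arrays (adjusted p = 0.504).

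The 4 other miR-27 names were not tested on Agilent. Neither probe of miR-27a, miR-27d or miR-27e was well above background on any 60 hpf array, and the longer miR-27b probe was so on 1 DMSO and 2 TCDD arrays. On Exiqon, where 223 of 224 names were tested, they could be followed. Whether these Exiqon probes also pair with other miR-27 miRNAs was not tested. miR-27e, with ratios of 0.050, 0.13 and 0.20 in DMSO and 0.44, 0.46 and 0.56 in TCDD, had the largest change of all miRNAs on that platform, 0.36 ± 0.046 or 1.28-fold (adjusted p = 0.000259). miR-27b went from 0.098, 0.19 and 0.16 to 0.38, 0.39 and 0.38, a change of 0.23 ± 0.031 (adjusted p = 0.000315). miR-27d went from 0.025, 0.051 and 0.074 to 0.24, 0.26 and 0.20, a change of 0.19 ± 0.038 (adjusted p = 0.00916).
miR-27a was the member that did not pass, with DMSO ratios of 0.074, -0.047 and 0.0098 and TCDD ratios of 0.20, 0.15 and 0.11. Its arrays did not overlap either, and its difference of 0.14 ± 0.040 had an adjusted p of 0.0544. Among the Exiqon calls of these clusters, those of miR-23a, miR-23b and miR-27e held in all 17 alternative settings. Those of miR-24 and miR-27b were lost with the sample channel alone, that of miR-27c with median centring and that of miR-27d with either. The plot of array values for these miRNAs shows the separation on both platforms.

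**Figure D1:**
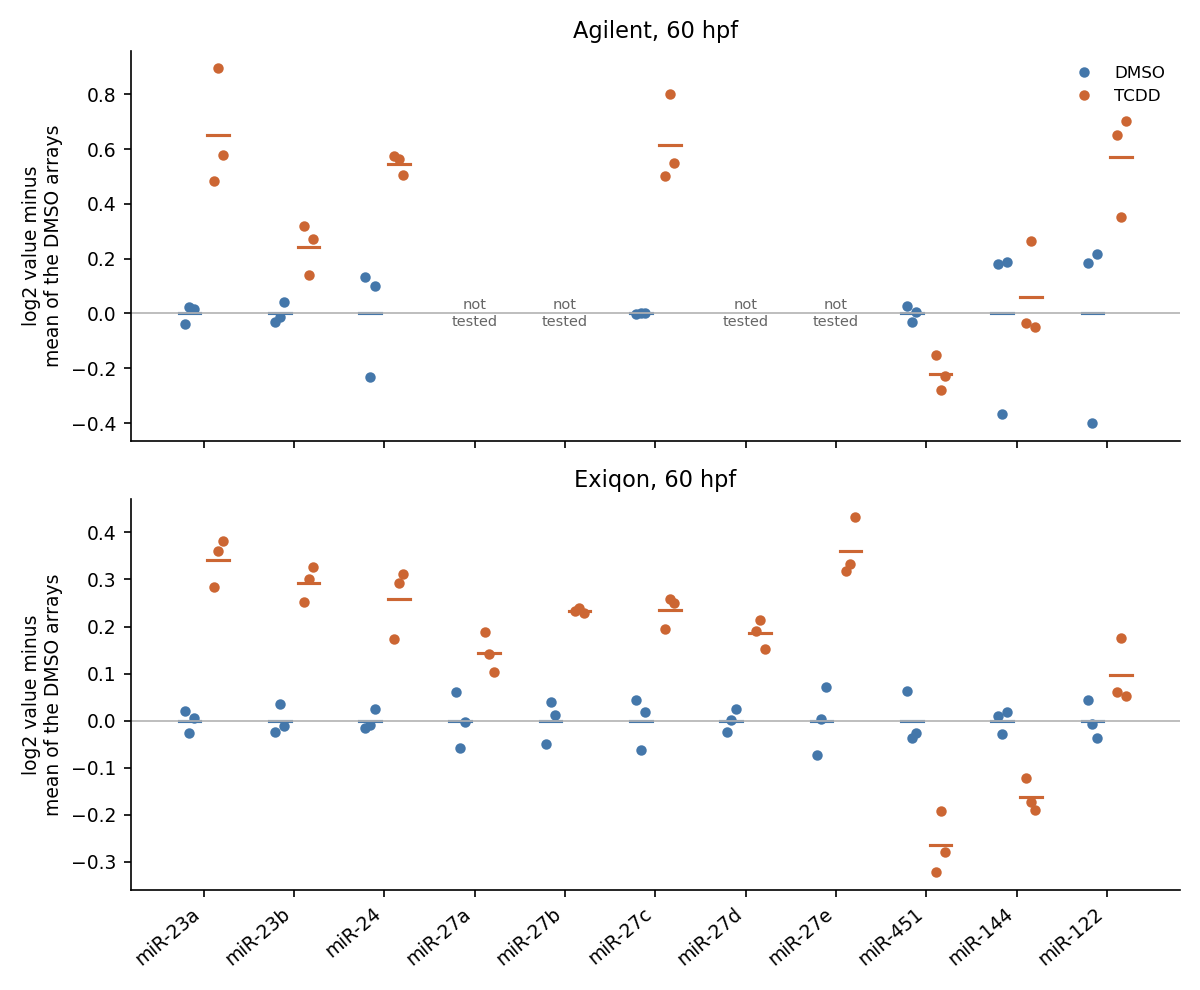
Log2 value of each 60 hpf array minus the mean of the 3 DMSO arrays, for the miR-23, miR-24 and miR-27 members, miR-451, miR-144 and miR-122 on Agilent (top) and Exiqon (bottom); points are arrays and bars group means, and the vertical scales differ. TCDD arrays lie above DMSO arrays for all measured members of the clusters and below them for miR-451, while for miR-144 the groups overlap on Agilent alone.

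miR-451 and miR-144 come from 1 transcript and are known in zebrafish for the maturation of red blood cells. miR-451 was the one miRNA that fell on both platforms. Agilent levels were -0.14, -0.20 and -0.16 in the DMSO arrays and -0.32, -0.44 and -0.39 in the TCDD arrays, every TCDD array lying below the lowest DMSO array. The change was -0.22 ± 0.047 (-0.32 to -0.12, adjusted p = 0.0210), and the shorter probe gave -0.18 ± 0.051. No other Agilent miRNA was called lower, so miR-451 alone makes up the 0.746% of tested miRNAs that fell there. Exiqon ratios were 0.34, 0.24 and 0.25 in DMSO and -0.048, 0.080 and -0.0066 in TCDD, a change of -0.27 ± 0.044 (-0.36 to -0.17; adjusted p = 0.00166). Within slides the Agilent change was -0.18 on slide 1 and -0.24 on slide 2. Against the DMSO arrays, which share its image analysis day, Exiqon TCDD replicate 2 differed by -0.19, and the 2 TCDD arrays of the second day by -0.30. With the first-day arrays alone the Exiqon change did not pass (adjusted p = 0.0664). The Agilent call was lost in 5 of 16 settings, among them without DMSO replicate 1 (adjusted p = 0.0900), without DMSO replicate 3 (adjusted p = 0.0658) and without TCDD replicate 3 (adjusted p = 0.111). The rest were the 75th percentile over all probes and the 60 hpf arrays alone. The Exiqon call was also lost with median centring.

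miR-144 gave different pictures on the platforms. On Exiqon 1.35% of tested miRNAs fell, miR-144 among them. The miR-144 ratios were 0.17, 0.13 and 0.18 in DMSO and 0.039, -0.012 and -0.028 in TCDD, with no overlap. This was a fall of 0.16 ± 0.035 (adjusted p = 0.0120). On Agilent the levels were -3.06, -3.61 and -3.06 in DMSO and -3.28, -2.98 and -3.29 in TCDD, and the groups overlapped widely. The Agilent difference was 0.059 ± 0.15, with an interval of -0.26 to 0.38 that holds the Exiqon change. Its probe was not well above background in DMSO replicate 2, the lowest of the 6 values. Across the main and alternative settings the Agilent difference ranged from -0.12, the value without DMSO replicate 2, to 0.36 and never passed. The Exiqon call was lost in 6 of 17 alternative settings, among them image analysis day as a block (adjusted p = 0.0841) and without DMSO replicate 3 (adjusted p = 0.0543) and without TCDD replicate 3 (adjusted p = 0.0590). Of the 2 erythroid miRNAs, 1 of 2 fell on Agilent and 2 of 2 on Exiqon, with list medians of -0.081 and -0.21.

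**Figure D2:**
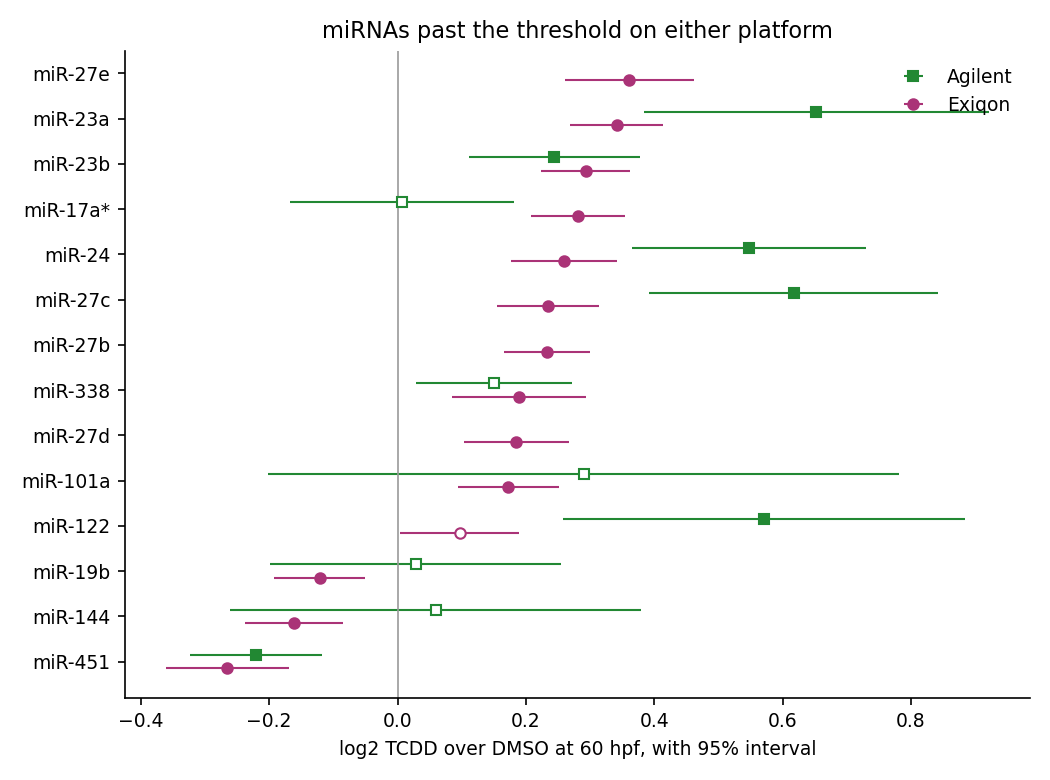
Log2 TCDD over DMSO at 60 hpf with its 95% interval for every miRNA past the threshold on either platform, squares for Agilent and circles for Exiqon, filled where the adjusted p is under 0.05. miR-27b, miR-27d and miR-27e have no Agilent value, and for miR-23a, miR-24 and miR-27c the Agilent change is the larger one.

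miR-122, the hepatocyte miRNA, passed on Agilent alone. Its levels were -3.73, -4.31 and -3.69 in the DMSO arrays and -3.26, -3.56 and -3.21 in the TCDD arrays. DMSO replicate 2, where the probe was not well above background, was the lowest by a wide margin, and the groups did not overlap. The change was 0.57 ± 0.14 (1.49-fold, adjusted p = 0.0457), and the shorter probe gave 0.41 ± 0.12. That error pools the 60 hpf spread, with standard deviations of 0.35 in DMSO and 0.19 in TCDD, with the 36 hpf spread. At 36 hpf the group means of miR-122 were equal. With the 60 hpf arrays alone the miR-122 call was lost. miR-122, like miR-143, met the detection filter through the TCDD arrays of 60 hpf alone, and with no detection filter the call was lost (adjusted p = 0.245). It was called in 6 of 16 alternative settings, and its change ranged from 0.25 to 0.72. Without DMSO replicate 2 it was 0.37 (adjusted p = 0.0454), and the call was lost without TCDD replicate 1 (adjusted p = 0.195) and without TCDD replicate 3 (adjusted p = 0.193). On Exiqon the ratios of miR-122 were 0.52, 0.47 and 0.44 in DMSO and 0.54, 0.65 and 0.53 in TCDD, also without overlap, but the difference of 0.097 ± 0.042 did not pass (adjusted p = 0.172). The difference between platforms in miR-122, 0.47, was the largest among the 132 shared names. The next miRNA on Agilent, miR-143, known from vascular smooth muscle and heart, was at 0.48 ± 0.14 and did not pass (adjusted p = 0.104). Its difference was 0.087 on slide 1 and 0.68 on slide 2, and 0.066 ± 0.051 on Exiqon with overlapping arrays.

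Passing on Exiqon alone, among names that Agilent tested, were miR-17a*, miR-101a, miR-338, miR-144 and miR-19b. With image analysis day as a block, all of these but miR-17a* lost their call. miR-17a*, the opposite strand of miR-17a in the miR-17-92 cluster, had ratios of -0.36, -0.40 and -0.40 in DMSO and -0.14, -0.12 and -0.057 in TCDD, with a wide gap between the groups. It rose by 0.28 ± 0.033 (adjusted p = 0.000185), while miR-17a itself was at -0.076 ± 0.031 (adjusted p = 0.167). The same miRNA differed by 0.27 ± 0.033 at 36 hpf on Exiqon (adjusted p = 0.00101) and by 0.20 ± 0.079 on Agilent (adjusted p = 0.727). On Exiqon the difference between the times was 0.016 ± 0.047 (adjusted p = 0.903). The Exiqon DMSO arrays of 36 hpf were all of another scan than the TCDD arrays, so scan and treatment cannot be told apart at that time. On Agilent its brightest probe lay near the floor of the scale, -5.19, on all arrays, was well above background on 3 of 6, and gave a difference of 0.0069 ± 0.079.

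miR-101a, known in mammals for targeting Ezh2, had Exiqon ratios of 0.070, 0.042 and -0.023 in DMSO and 0.22, 0.15 and 0.24 in TCDD, a change of 0.17 ± 0.036 (adjusted p = 0.0102). Its second Exiqon probe gave 0.12 ± 0.065 with overlapping arrays, and its relative miR-101b 0.069 ± 0.033 (adjusted p = 0.208). On Agilent miR-101a was at 0.29 ± 0.22 (adjusted p = 0.770), with DMSO replicate 2 at -4.98 against -3.86 and -4.08 for the other DMSO arrays, and without that array it was at -0.047. The Exiqon call was lost in 9 of 17 settings, among them without DMSO replicate 3 (adjusted p = 0.0531) and without TCDD replicate 3 (adjusted p = 0.0536), and the smallest change was 0.016 in these settings.

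miR-338, known in mammals for oligodendrocyte maturation, did not overlap between groups on either platform. Its Agilent levels were -1.14, -1.16 and -1.10 in DMSO and -0.92, -1.02 and -1.02 in TCDD, a difference of 0.15 ± 0.055 (adjusted p = 0.297). Its Exiqon ratios were 0.31, 0.37 and 0.48 in DMSO and 0.57, 0.54 and 0.62 in TCDD, a change of 0.19 ± 0.048 (adjusted p = 0.0369). That call was lost in 12 of 17 settings, with adjusted p up to 0.698 and by leaving out any array except DMSO replicate 3 or TCDD replicate 2. miR-19b, of the miR-17-92 cluster, fell by 0.12 ± 0.032 on Exiqon, from -0.084, -0.052 and -0.012 to -0.20, -0.15 and -0.17 (adjusted p = 0.0477), and was called in 3 of 17 settings, with adjusted p up to 0.475 in the rest; only the omission of DMSO replicate 1 or TCDD replicate 2 kept the call among the single-array omissions. On Agilent its longer probe was saturated on all 3 DMSO arrays and 2 of 3 TCDD arrays, so it could not measure a change. The shorter probe, well above background on all 6 arrays, gave -0.078 ± 0.074 with overlapping arrays.

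Just outside the threshold on Exiqon, beside miR-27a, were miR-142a-5p of leukocytes at -0.13 ± 0.036, miR-458 at 0.18 ± 0.051, miR-19a* at -0.19 ± 0.052, the neuronal miR-9* at 0.12 ± 0.036 and miR-20b at -0.13 ± 0.039, with adjusted p from 0.0544 to 0.0650. The other Exiqon probe of miR-19a* went the opposite way, at 0.10 ± 0.058. That of miR-142a-5p was at -0.026 ± 0.036 and that of miR-9* at 0.084 ± 0.046. All of these other probes had overlapping arrays. On Agilent the values next in order after miR-143 were miR-338, miR-139 at 0.22 ± 0.081, the pancreatic miR-216b at 0.14 ± 0.055 and the neuronal miR-138 at 0.30 ± 0.12, with adjusted p from 0.297 to 0.402. The last 3 did not pass on Exiqon either, where they gave -0.11 ± 0.056, 0.052 ± 0.061 and 0.044 ± 0.036.

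Arrays of the groups did not overlap for 16 of 134 Agilent miRNAs (11.9%) and for 55 of the 210 Exiqon miRNAs measured on all 6 arrays (26.2%). On both platforms with the same sign it was 10 of 129 (7.75%), 8 higher and 2 lower, and no miRNA was apart on both with opposite signs. These 10 were the 5 called on both, miR-122, miR-338 and 3 that passed on neither. miR-181a was at 0.096 ± 0.054 on Agilent and 0.094 ± 0.039 on Exiqon, and miR-141, an epithelial miRNA of the miR-200 family, at 0.12 ± 0.079 and 0.053 ± 0.027. miR-18c, a relative in the miR-17-92 group, was at -0.11 ± 0.048 and -0.092 ± 0.030, nearly the same value on both. The shorter Agilent probes of miR-181a, miR-141 and miR-18c had overlapping arrays, and that of miR-18c gave -0.029 ± 0.077.

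Over the 132 shared names, 79 had the same sign on both platforms. Of the 6 Agilent calls, all 6 had the same sign on Exiqon, and of the 10 Exiqon calls tested on Agilent, 8 did. The exceptions were miR-144, whose Agilent difference took either sign across the alternative settings, and miR-19b. The sign of miR-19b comes from the saturated probe, and the 8 include miR-17a*, whose Agilent probe lay near the floor. The Agilent signs counted here for miR-19b and miR-17a* are therefore no measure of their change. The shorter miR-19b probe gave -0.078 ± 0.074, the sign of the Exiqon change, with overlapping arrays. The Agilent 95% interval held the Exiqon change for 113 of 132 miRNAs. As a description across miRNAs, which share arrays and probe chemistry and are not independent replicates, Pearson's r was 0.47 and Spearman's rho 0.31 (n = 132). The platforms differed most, after miR-122, in miR-143, miR-27c, miR-139 and miR-16a. miR-16a was at 0.32 ± 0.18 on Agilent, where DMSO replicate 2 was again lowest, and at -0.0059 ± 0.034 on Exiqon. The standard error of a change was larger on Agilent, 0.076 at the median against 0.045 on Exiqon.

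**Figure D3:**
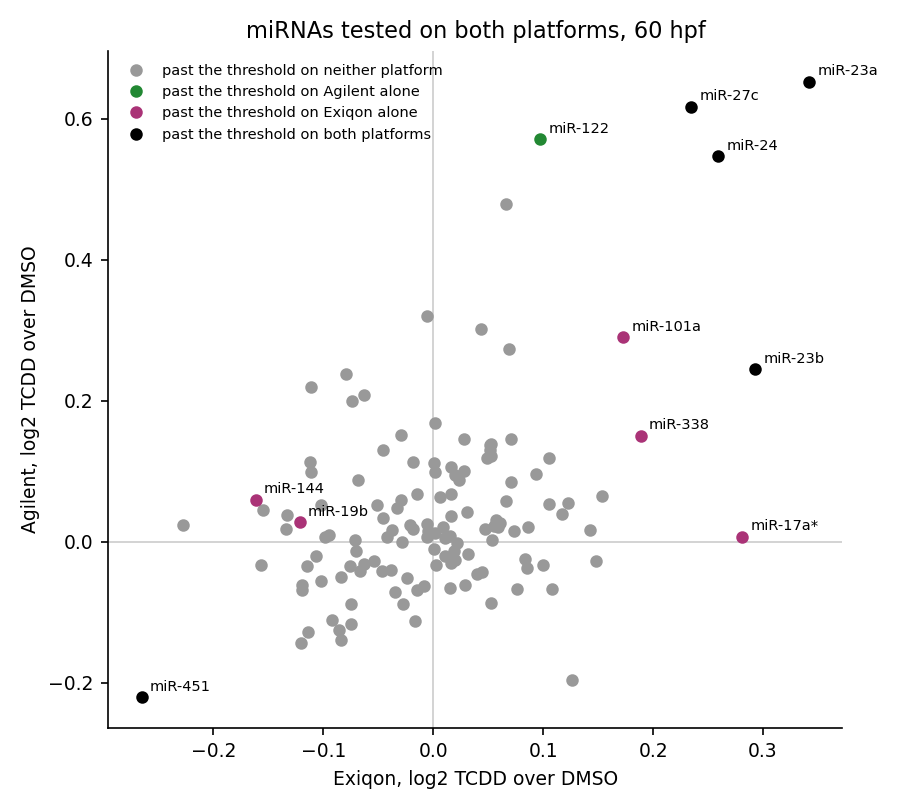
Log2 TCDD over DMSO at 60 hpf of the 132 miRNAs tested on both platforms, Exiqon on the horizontal and Agilent on the vertical axis, coloured by where the adjusted p is under 0.05. The 5 called on both platforms lie away from the main cloud, 4 in the upper right and miR-451 in the lower left, and miR-122 is high on Agilent alone.

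In the lists of other tissues and families, where 4.48% of all tested miRNAs passed on Agilent and 5.83% on Exiqon, the calls were 1 of 5 liver, gut and pancreas miRNAs on Agilent (miR-122) and 1 of 15 of the miR-17-92 and paralogous clusters on Exiqon (miR-19b), and none in the other 12 lists. The 6 heart and skeletal muscle miRNAs had a median change of -0.033 on Agilent and -0.039 on Exiqon. Among them miR-499, of slow and heart muscle, was at -0.068 ± 0.070 and -0.12 ± 0.038. The values of miR-133a were 0.088 ± 0.051 on Agilent and -0.068 ± 0.043 on Exiqon, and those of miR-1 were 0.0027 ± 0.060 and 0.053 ± 0.029. Neuronal miRNAs had medians of 0.074 (8 tested) and -0.0054 (13 tested). On Agilent, where 8 of the 13 names on the array passed the detection filter, 8 of 8 had a value above 0, beside 84 of 134 over all miRNAs. That of miR-9 came from a probe saturated on 3 DMSO and 2 TCDD arrays. Without DMSO replicate 2 the Agilent median over all miRNAs tested was 0.00024, against 0.020 with it. On Exiqon it was 6 of 13, beside 114 of 223. The miR-17-92 list had 9 of 14 members below 0 on Agilent and 11 of 15 on Exiqon, with medians of -0.032 and -0.063. Among them miR-363 was at -0.12 ± 0.055 on Agilent and -0.086 ± 0.038 on Exiqon. The values of miR-20b were 0.037 ± 0.13 on Agilent and -0.13 ± 0.039 on Exiqon, and neither miRNA passed the threshold on either platform.

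Of the 9 liver, gut and pancreas miRNAs on Agilent 5 passed the detection filter. All 5 were above 0, with a median of 0.20, against 4 of 8 on Exiqon with a median of 0.0050. Among these 5, miR-122 met the filter through TCDD arrays alone, so neither its sign nor its call is independent of the filter. DMSO replicate 2 was the lowest DMSO array for miR-122, miR-216a, miR-216b and miR-217, and the highest for miR-192. miR-192, of liver and gut, was at 0.11 ± 0.034 on Exiqon (adjusted p = 0.0795). Cartilage and mesenchyme miRNAs, which include miR-140 of jaw cartilage, had medians of -0.024 and -0.070 over 3 members. The skin miRNA miR-203a was at -0.14 ± 0.076 on Agilent and -0.12 ± 0.040 on Exiqon (adjusted p = 0.670 and 0.0795). Leukocyte miRNAs had medians of -0.12 (2 tested) and 0.037 (8 tested). The let-7 family, with medians of 0.064 and 0.0041, had let-7d at 0.15 ± 0.084 on Agilent and -0.030 ± 0.037 on Exiqon. Its member let-7h was at 0.15 ± 0.047 on Exiqon and was not tested on Agilent. The medians of the other lists on Agilent and Exiqon were, for epithelial 0.013 and 0.019, vascular and smooth muscle 0.021 and 0.0093, miR-430 family -0.040 and 0.040, sensory organ 0.019 and -0.018, Hox-embedded 0.00026 and 0.0084, stress-associated 0.031 and 0.016, and lens and retina -0.020 and -0.10. The plot by list shows the spread of the members of each list on both platforms.

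**Figure D4:**
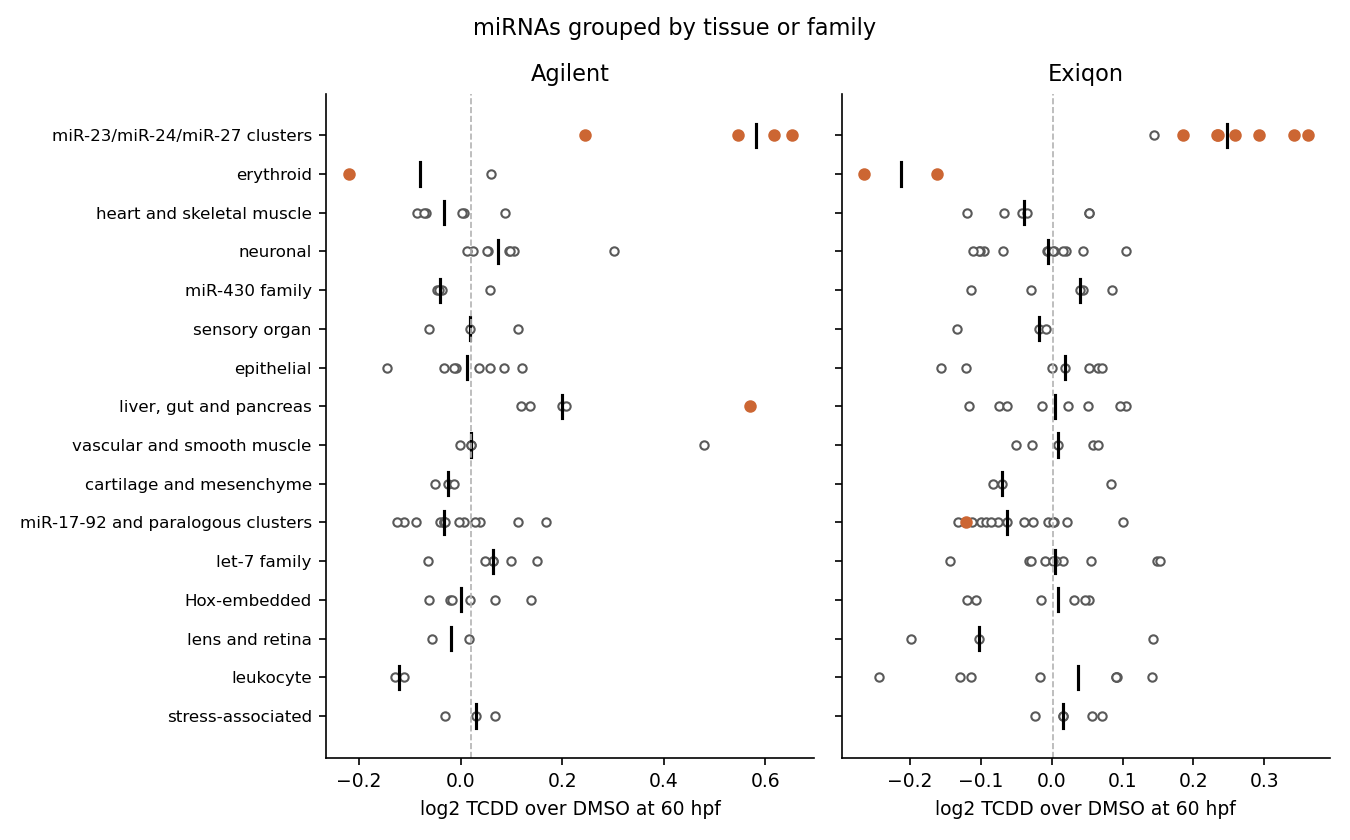
Log2 TCDD over DMSO at 60 hpf of each tested miRNA (circles; filled where the adjusted p is under 0.05), grouped by tissue or family, with the list median as a black bar and the median of all miRNAs tested as a dashed line, for Agilent (left) and Exiqon (right). The miR-23, miR-24 and miR-27 members lie to the right on both platforms, with medians of 0.58 and 0.25.

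Beside the earlier time, 6 h after the exposure began, the Exiqon changes of miR-23a, miR-23b, miR-24 and miR-27e were larger at 60 hpf. miR-23a was at 0.061 ± 0.033 on Exiqon at 36 hpf, and the difference between the times, tested in the same fit, was 0.28 ± 0.047 (adjusted p = 0.0149). That difference also passed for miR-23b, miR-24 and miR-27e, and with the opposite sign for miR-146b, which makes 5 of 223 (2.24%). On Agilent the difference passed for 2 of 134 (1.49%), miR-451 and miR-181a*, while miR-27c had 0.55 ± 0.14, miR-24 0.37 ± 0.12 and miR-23a 0.51 ± 0.17, with adjusted p of 0.124, 0.315 and 0.342. miR-23b on Agilent was at 0.12 ± 0.061 at 36 hpf and 0.24 ± 0.061 at 60 hpf, a difference of 0.12 ± 0.086 (adjusted p = 0.678). miR-451 was at 0.099 ± 0.047 at 36 hpf on Agilent, and the difference was -0.32 ± 0.066 (adjusted p = 0.0347). On Exiqon the miR-451 difference was -0.24 ± 0.062 and did not pass (adjusted p = 0.0627). The 3 DMSO arrays of 36 hpf on Exiqon were the only ones on a second scan, so at that time scan and treatment cannot be told apart. These counts moved with single arrays of 60 hpf. On Agilent the count was 0 without any 1 of the 3 DMSO arrays or TCDD replicate 3, where 11 miRNAs had an unadjusted p under 0.05 with all arrays. On Exiqon it was 1, 2 and 3 without DMSO replicate 1, 2 and 3, and 8, 16 and 3 without TCDD replicate 1, 2 and 3. The 1 left without DMSO replicate 1 was miR-23a, and the 2 left without DMSO replicate 2 were miR-23a and miR-23b. All 5 were lost with median centring and with the sample channel alone.

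**Figure D5:**
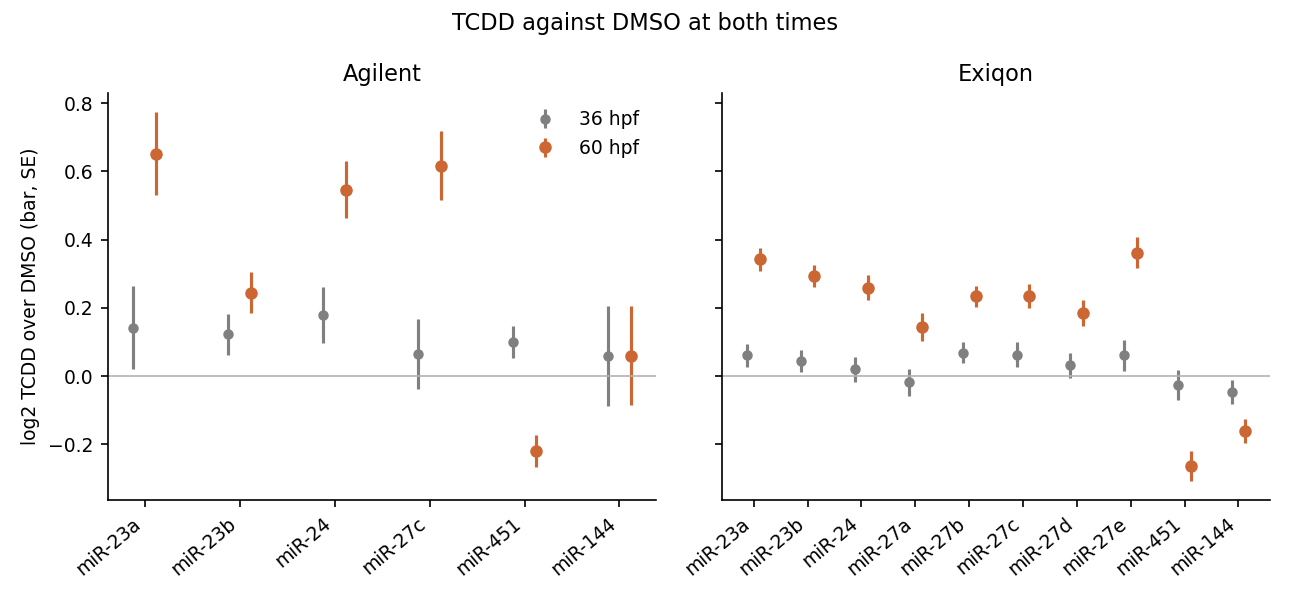
Log2 TCDD over DMSO, with its standard error, at 36 hpf (grey) and 60 hpf (orange) for the miR-23, miR-24 and miR-27 members, miR-451 and miR-144 on Agilent (left) and Exiqon (right). The 60 hpf changes of the cluster members lie above their 36 hpf changes, which on Agilent reach 0.18 ± 0.083 for miR-24.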

How the data were processed

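Total RNA of zebrafish embryos was hybridised to Agilent and Exiqon miRNA arrays, 12 of each, and the 6 arrays of 60 hpf per platform are compared here. The Agilent files hold spot intensity values, background-subtracted by Agilent Feature Extraction 9.5 per the file headers, and the deposited value table holds the same intensity with no scaling between arrays. The Exiqon scanner files hold spot intensity in both dyes per the file headers; the deposited table holds log2 ratios whose normalization neither the labels nor the headers state, and it served as an alternative.

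Agilent signals, without outlier spots, were averaged per probe, divided by each array's 75th percentile, taken over 186 probes that all 12 arrays detected, floored at 0.0273 and log2-transformed; the brightest probe stood for a name, and testing a name required detection on every array (3 of 3) in 1 or more groups. Exiqon spots had normexp background correction (offset 50) and within-array loess, without low-quality spots. The main value of both is a log2 intensity or ratio computed here from the deposited intensity. Each platform was fitted in limma 3.58.1 (R 4.3.3) on 4 group means over all 12 arrays, two-sided, with Benjamini-Hochberg adjustment at 0.05. With 3 arrays against 3, the smallest p of an exact permutation test is 0.1. Precision is limited by how few arrays there are. The script was tested on simulated data. Named miRNAs are those past the threshold on either platform, the next 5 in order of p, those without overlap on both, the 5 largest platform differences, the 2 smallest p of each list, and relatives, taken by name because no mature sequences were used here; miR-20b's place in the order, miR-140 and miR-146b were named after their values were seen. The members and lists were chosen with earlier results of these data known. Where nothing says that replicates came from separate clutches, p-values measure only the spread between these samples. Alternatives covered background correction, scaling, detection filter, probe summary, deposited tables, slide, image analysis day, replicate block, 60 hpf arrays alone and each array left out. The deposited Agilent table holds the intensity behind the main values, so that alternative could not differ, though the counts of Agilent settings include it.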

Additional observations from a re-analysis of the deposited data

Results flagged for a closer look

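The effect of TCDD differed between 60 and 36 hpf, by limma's test of that difference over all miRNAs of the platform, for 2 miRNAs on Agilent and 5 on Exiqon. miR-181a* on Agilent lay above DMSO at 36 hpf (0.31 ± 0.052) and at -0.068 at 60 hpf, a difference of -0.38 ± 0.074 (adjusted p = 0.0347). Its levels of -4.31 to -3.90 at 36 hpf lay nearer the floor of -5.19 than those of -1.70 to -1.54 at 60 hpf. On Exiqon miR-181a* was at 0.11 ± 0.066 at 60 hpf, the opposite sign (adjusted p = 0.325). miR-451 on Agilent had a difference of -0.32 ± 0.066 (adjusted p = 0.0347). miR-146b on Exiqon, an miRNA of inflammation in mammals, had the largest difference, -0.59 ± 0.12 (adjusted p = 0.0317), from 0.34 at 36 hpf to -0.24 at 60 hpf. Its 36 hpf DMSO arrays ranged from -0.31 to 0.047 and its TCDD arrays from 0.11 to 0.24. Leaving out any single DMSO array of 60 hpf lost the miR-146b call. On Exiqon miR-27e differed by 0.30 ± 0.065, miR-23a by 0.28 ± 0.047, miR-23b by 0.25 ± 0.045 and miR-24 by 0.24 ± 0.053, all larger at 60 hpf. All 36 hpf DMSO arrays on Exiqon were of another scan, and its part in these differences was not tested.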

How the results depend on the processing

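The Agilent count of 6 became 2 with normexp background correction, and 3 with the percentile over all probes, with no detection filter or with 60 hpf arrays alone; leaving out single arrays gave 3 to 6. The Exiqon count of 13 became 6 with median centring and 6 with the sample channel alone, and 9 to 50 with single arrays left out. With image analysis day as a block it was 9, without miR-101a, miR-144, miR-19b and miR-338. The Agilent difference between times, 2 miRNAs, became 1 with normexp or quantile normalization and 0 with the all-probe percentile, the mean of the probes, or outlier spots left out of detection, an alternative chosen after seeing the data that also gave 4 Agilent calls; single arrays left out gave 0 to 2. The Exiqon difference, 5 miRNAs, became 0 with median centring or the sample channel alone, 2 with low-quality spots kept or the deposited table, 9 with image analysis day as a block, and 1 to 16 with single arrays left out; with all arrays 11 Agilent and 33 Exiqon miRNAs had an unadjusted p under 0.05. The 5 calls shared by both platforms became 3 with 60 hpf arrays alone or no filter, and were 4 or 5 in the other 5 alternatives paired across the platforms. For outlier spots left out of detection, that pairing used the main Exiqon calls. Other settings were not paired. Among them, normexp background correction on Agilent kept only the Agilent calls of miR-24 and miR-451. Calls higher under TCDD went from 5 of 6 to 3 of 3 on Agilent with the all-probe percentile and to 1 of 2 with normexp, and on Exiqon from 10 of 13 to 6 of 6 with median centring, 4 of 6 with the sample channel alone and 23 of 50 without TCDD replicate 2. miR-19b on Exiqon reversed, at 0.074 with the sample channel alone. Among alternatives for called miRNAs, 67 of 96 Agilent values and 172 of 221 Exiqon values kept direction and call; of those for uncalled ones, 51 of 719 and 62 of 850 changed sign, and 24 Exiqon values passed. The Agilent values counted here include those of the deposited table, which repeat the main ones. The causes were not tested.

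Same-numbered samples did not deviate together (r = 0.15, 0.0100 and 0.021 on Agilent; -0.11, -0.17 and 0.043 on Exiqon), and not every sample correlated best with its own number. With the replicate number as a block the counts were 6 on Agilent, 12 on Exiqon and 5 on both, and for the difference between times 0 and 3. Low signal limits Agilent: 21 of its 134 miRNAs were not well above background on all 6 arrays.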
